A study of Mus musculus with 8 samples.

Results

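Mitochondrial fatty acid oxidation genes were examined in the brown fat of male C57BL/6 mice on 2 diets, brown fat being the depot that burns fuel for heat. The list named 29 symbols and added the enoyl-CoA isomerases Eci1 and Eci2, which the deposited table carries under their older symbols Dci and Peci. All 31 genes were found, out of 21759 genes tested. One transcript cluster, the group of array probes placed along a gene, stood for each gene, namely the one with the highest mean over 8 arrays. The list is called oxidation and ketogenesis genes in its working name, but it holds no enzyme that makes ketone bodies, so it is described here as fatty acid oxidation genes with 4 associated genes.

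Expression was read with the Mouse Gene 1.0 ST array of Affymetrix, which covers whole transcripts, with 4 arrays in a group labelled NCD and 4 in a group labelled HFD. HFD stands for high-fat diet in the series title. What NCD abbreviates, the age of the mice, what the diets contained and how long they were fed are not stated in the sources used here. Both groups share sex, strain and tissue, and no genetic change is named. Nothing in the labels says that the arrays of a group came from separate animals, so p-values reflect the spread between these arrays alone, which may be technical. The 8 arrays correlated with each other at 0.976 to 0.991 across clusters, and the standard deviation over clusters was widest on NCD 3 (1.82), NCD 2 (1.79) and HFD 4 (1.78). Of 10 brown adipocyte markers, 1, Zic1, averaged under the 6.46 that 95% of olfactory receptor genes, a stand-in for unexpressed genes, did not exceed. Zic1 was at 5.30 in NCD and 5.28 in HFD, and Elovl3 at 7.20 and 5.82. Ucp1, the uncoupling protein of brown fat, averaged 12.90 (SD 0.05, n = 4) on NCD arrays and 12.85 (SD 0.05, n = 4) on HFD arrays, on the log2 scale. The mean log2 level of 15 skeletal muscle markers was 8.93 on NCD 1 and 9.60 on HFD 3, against 5.42 to 5.81 on the other 6 arrays, so muscle RNA differed between single arrays of both groups. Where a gene differs in whole tissue, fewer cells of a type and less RNA per cell cannot be told apart.

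Long-chain fatty acids cross the mitochondrial membranes as carnitine esters, and carnitine palmitoyltransferase 1 at the outer membrane is the controlled step, blocked by malonyl-CoA, the first committed product of fatty acid synthesis. Inside the mitochondrion, each turn of beta-oxidation runs through a dehydrogenase, a hydratase, a second dehydrogenase and a thiolase, and passes electrons to the respiratory chain. In brown fat this oxidation is the main fuel supply for uncoupled respiration.

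Fatty acid oxidation genes did not pass the test between the diets in either direction. Of the 31 genes, 0 were higher and 0 were lower in HFD at an adjusted p of 0.05 in limma, and the lowest adjusted p among them was 0.544, that of Cpt1a. Over all genes tested 0.142% passed, 0.133% lower and 0.00919% higher in HFD, so a count of 0 among 31 is near the background. At an unadjusted p under 0.05 limma counted 2 of the 31 (6.45%), 1 higher and 1 lower, against 7.24% of all genes. The methods' t-test counted 4 (12.9%) before adjustment, against 6.96% of all genes, and 0 after it. It was run here with equal variances and does not return the authors' deposited p-values. The median log2 difference, HFD minus NCD, was -0.07 over the 31 genes and -0.01 over all genes, and the differences of the 31 ran from -0.28 to 0.34. Mean levels were lower in HFD for 23 of the 31 (74.2%), and for 52.5% of all genes.

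A missed threshold does not show that levels were equal, so the interval of each difference matters here. The 95% interval of the difference stayed within a 1.5-fold change in either direction for 28 of the 31 genes. These include the 5 genes within the range of olfactory receptor genes on both diets, where a narrow interval says little about the transcript; of the other 26 genes, 23 stayed within it. The 3 exceptions were Slc25a20, Acsf3 and Cpt1a, whose intervals reached beyond it on one side. For 9 of the 26 the interval also stayed within a 1.25-fold change. These intervals are per gene and are not adjusted for the number of genes.

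**Figure D1:**
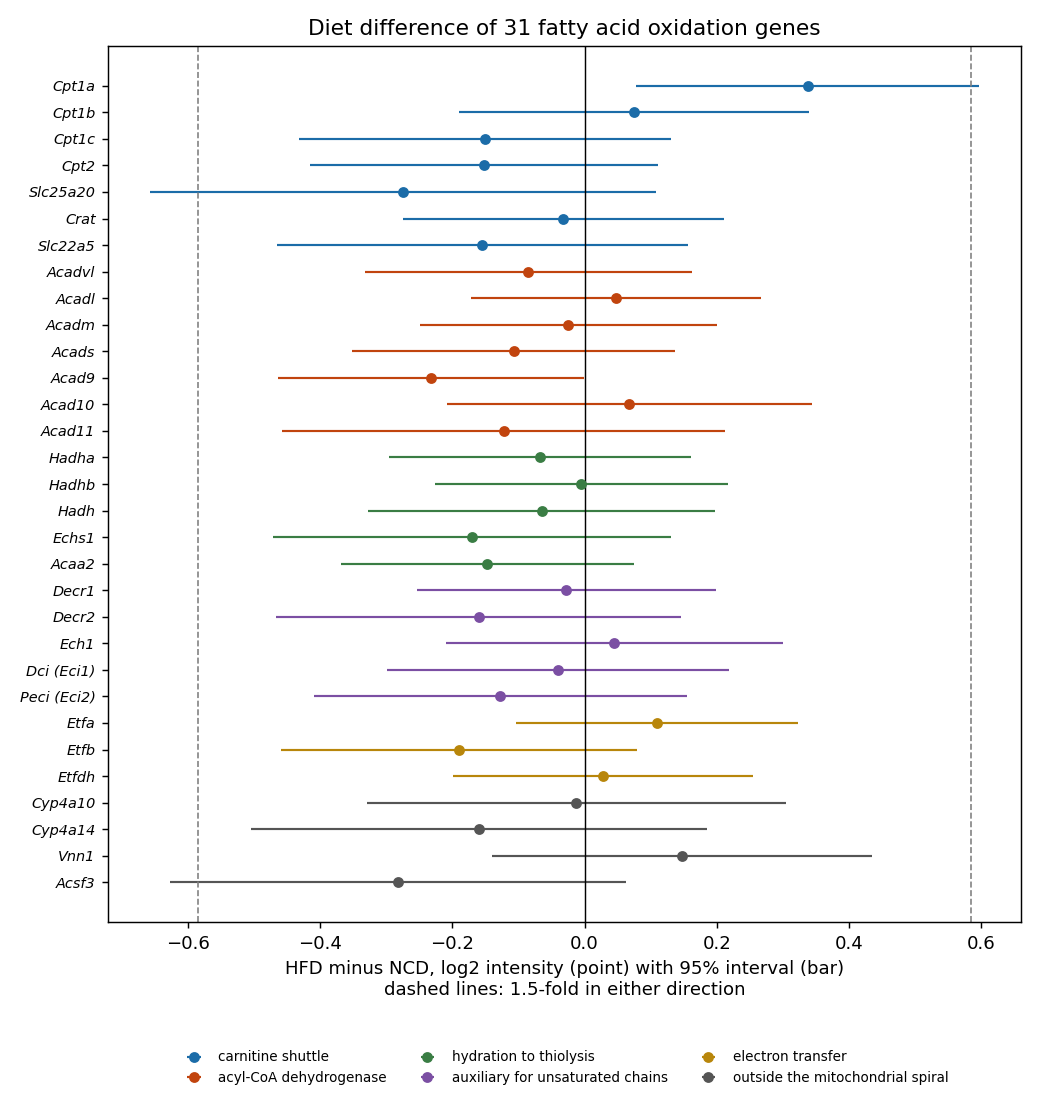
Difference between the diets (HFD minus NCD, log2 intensity) for the 31 genes, in the order of their roles, with the 95% interval from limma as a bar and dashed lines at a 1.5-fold change. Points lie between -0.28 and 0.34, and 28 of the 31 intervals stay between the dashed lines.

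Among the genes of the carnitine shuttle, Cpt1a had the largest difference of all 31 genes. Cpt1a encodes the liver-type carnitine palmitoyltransferase 1, and its cluster lies on chromosome 19 from 3323320 to 3385733 in the file, which does not name a genome build. Its log2 level was 6.40, 6.29, 6.60 and 6.21 on NCD 1 to 4, and 6.63, 6.64, 6.93 and 6.65 on HFD 1 to 4. All 4 HFD arrays lay above all 4 NCD arrays, although HFD 1 exceeded NCD 3 by little. The difference was 0.34 ± 0.12 (SE), a 1.26-fold higher level in HFD with a 95% interval from 0.08 to 0.60 on the log2 scale, and it did not pass over all genes (limma adjusted p = 0.544). In the authors' deposited table the Cpt1a fold is 1.26 with a p of 0.03. HFD arrays lay wholly above NCD arrays for 2 of the 31 genes (6.45%) and for 1.33% of all genes tested, and wholly below for 1 of the 31 (3.23%) and for 2.50% of all. The HFD array farthest from the others, HFD 3, is also the one with the highest muscle markers. Without NCD 1 and HFD 3 the Cpt1a difference was 0.27 (limma adjusted p = 0.625), so the direction did not rest on those arrays. The level is also dim: the NCD mean of 6.375 lies under the 6.46 that 95% of 1119 olfactory receptor genes, a stand-in for unexpressed genes, did not exceed, and the HFD mean of 6.71 lies above it.

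Of the related isoforms, Cpt1b, the muscle-type enzyme that is known as the main form in brown fat, did not differ by more than its spread. Its log2 level was 10.15, 10.29, 10.55 and 10.20 on NCD 1 to 4 and 10.27, 10.35, 10.27 and 10.60 on HFD 1 to 4. The groups overlapped almost fully, with a difference of 0.075 and a 95% interval from -0.19 to 0.34. NCD 1 and HFD 3, the arrays with muscle RNA, held no high Cpt1b value, at 10.15 and 10.27. Cpt1c, a form known mainly from neurons, averaged 5.90 (SD 0.15, n = 4) on NCD arrays and 5.75 (SD 0.23, n = 4) on HFD arrays, within the range of olfactory receptor genes on both diets.

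In the reference sequence the 250 bases before the Cpt1a start hold 1 copy of AGGTCA, the half-site that nuclear receptors such as the PPARs read. The stretch is printed because Cpt1a was the member with the largest difference; it comes from RefSeq, build GRCm38.p6, chr19:3323051-3323300, plus strand, with the half-site in capitals in its reverse orientation, starting 94 bases before the gene start.

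Cpt1a promoter: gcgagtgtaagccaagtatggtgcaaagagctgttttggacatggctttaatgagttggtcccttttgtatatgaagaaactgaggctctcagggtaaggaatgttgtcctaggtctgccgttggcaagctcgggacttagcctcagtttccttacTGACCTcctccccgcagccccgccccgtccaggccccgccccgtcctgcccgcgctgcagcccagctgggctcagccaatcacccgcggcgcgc

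Promoter entries were found for 23 of the 31 genes. AGGTCA occurred on either strand in 5 of these 23 stretches (21.7%), those of Cpt1a, Cpt1c, Acadvl, Acadm and Echs1, and in 15.8% of the stretches of all 27025 genes with an entry. The full PPAR element, a direct repeat of AGGTCA with 1 base between the copies, occurred in 0 of the 23 and in 0.0407% of all. The extended half-site TCAAGGTCA, read by the estrogen-related receptors, occurred in 0 of the 23 and in 0.422% of all. Both strands were searched, and the longer motifs contain the half-site, so their matches are also matches of AGGTCA. A match is a description of letters in this window and no match says nothing about a factor.

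The remaining shuttle genes all had slightly lower means in HFD. Slc25a20, the carnitine-acylcarnitine translocase of the inner membrane, showed the widest spread of the 31 genes. Its log2 level was 9.65, 9.81, 10.47 and 9.84 on NCD 1 to 4 and 9.28, 9.71, 9.66 and 10.02 on HFD 1 to 4. A single array, NCD 3, was far above the rest. The difference was -0.275 ± 0.18 (SE, limma adjusted p = 0.812), with a 95% interval from -0.66 to 0.11. Without NCD 2 and NCD 3, a choice that leaves out NCD arrays only, the difference was -0.08. After scaling the arrays to a common median and spread it was -0.18. Cpt2, which rebuilds acyl-CoA on the inner side of the membrane, was at 10.19, 10.40, 10.58 and 10.29 on NCD 1 to 4 and at 9.98, 10.23, 10.35 and 10.29 on HFD 1 to 4. The Cpt2 groups overlapped, and the difference of -0.15 (limma adjusted p = 0.845) shrank to -0.03 without NCD 2 and NCD 3. After the scaling it was -0.04. Crat, the short-chain carnitine acetyltransferase, had a difference of -0.03. Slc22a5, the carnitine transporter of the plasma membrane, had one of -0.155.

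The acyl-CoA dehydrogenases open each turn of the spiral, and the differences of the medium, long and very long chain enzymes were at most 0.085 in size. Acadm, the medium-chain dehydrogenase, read 11.51, 11.56, 11.65 and 11.42 on NCD 1 to 4 and 11.46, 11.51, 11.47 and 11.60 on HFD 1 to 4. Its groups overlapped fully, the difference was -0.025, and the 95% interval ran from -0.25 to 0.20. Acadl, the long-chain dehydrogenase, averaged 12.36 (SD 0.05, n = 4) on NCD arrays and 12.41 (SD 0.08, n = 4) on HFD arrays. Acadvl, the very-long-chain enzyme bound to the inner membrane, had a difference of -0.085, and Acads, the short-chain enzyme, one of -0.1075.

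Acad9 is an acyl-CoA dehydrogenase that also serves as an assembly factor of respiratory complex I. Acad9, annotated to chromosome 3 from 35964922 to 36149264, read 7.51, 7.54, 7.75 and 7.46 on NCD 1 to 4 and 7.31, 7.27, 7.34 and 7.41 on HFD 1 to 4. Its cluster covers the longest stretch of the 31, and whether all its probes lie within Acad9 was not checked. All HFD arrays were below all NCD arrays, and Acad9 was the only one of the 31 genes with that order (3.23%), a share near the 2.50% of all genes. The difference was -0.23 ± 0.11 (SE), a 1.17-fold lower level with a 95% interval from -0.46 to -0.001, and it did not pass over all genes (limma adjusted p = 0.684). Without NCD 2 and NCD 3 it was -0.15, and after scaling to a common median and spread -0.20. Acad11 had a difference of -0.12, with NCD 3 at 9.12 above all other arrays. Acad10 lay within the range of olfactory receptors, at 6.16 in NCD and 6.23 in HFD.

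The Acadm stretch is printed because Acadm is a well-known PPAR target among the dehydrogenases and its difference was near 0. It comes from RefSeq, build GRCm38.p6, chr3:153944644-153944893, minus strand, with the half-site in capitals, in its reverse orientation, starting 249 bases before the gene start.

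Acadm promoter: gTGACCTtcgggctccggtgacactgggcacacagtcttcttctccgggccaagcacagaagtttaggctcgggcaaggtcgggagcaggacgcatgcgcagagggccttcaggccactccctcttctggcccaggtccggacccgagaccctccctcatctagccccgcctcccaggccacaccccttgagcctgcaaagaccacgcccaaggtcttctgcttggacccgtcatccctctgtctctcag

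The enzymes that finish a turn of the spiral had means lower in HFD in 5 of 5 cases, by 0.005 to 0.17 on the log2 scale, but these signs depended on the arrays and their scaling. After scaling to a common median and spread, 4 of the 5 had higher means in HFD, namely Hadha (0.08), Hadhb (0.155), Hadh (0.06) and Acaa2 (0.0062). With quantile normalization run again Acaa2 stayed lower, at -0.12, and with cyclic loess, another scaling, at -0.10. Without NCD 2 and NCD 3, 3 of the 5 had higher means, namely Hadhb (0.055), Hadh (0.0625) and Echs1 (0.0225). Acaa2, the mitochondrial 3-ketoacyl-CoA thiolase, read 12.10, 12.10, 12.25 and 12.04 on NCD 1 to 4 and 11.98, 11.94, 11.94 and 12.04 on HFD 1 to 4. The groups met at 12.04 and otherwise did not overlap. The Acaa2 difference was -0.15 ± 0.10 (SE, limma adjusted p = 0.824), and the methods' t-test gave it an unadjusted p of 0.0269 and an adjusted p of 0.675. In the authors' deposited table the Acaa2 p is 0.04, so the equal-variance test run here does not return the deposited value. Echs1, the short-chain enoyl-CoA hydratase, had a difference of -0.17 (limma adjusted p = 0.849) that became 0.0225 without NCD 2 and NCD 3. After the scaling it stayed lower, at -0.07. Hadh, the hydroxyacyl-CoA dehydrogenase for shorter chains, had a difference of -0.065.

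Hadha and Hadhb encode the subunits of the mitochondrial trifunctional protein, which carries out the last steps for long chains. Hadha averaged 11.93 (SD 0.10, n = 4) on NCD arrays and 11.86 (SD 0.08, n = 4) on HFD arrays. Hadhb was the most nearly equal of the 31 genes, with a difference of -0.005 and a 95% interval from -0.23 to 0.22. The brighter of its 2 clusters is annotated to chromosome 2 from 108788937 to 108790899, whereas the RefSeq gene lies on chromosome 5, so signal of a near-identical copy and of the gene may not be separated there. The cluster on chromosome 5, from 30490217 to 30511122, gave a difference of 0.015, and its level was 12.25 to 12.40 over the NCD arrays. The other 30 genes had clusters on the chromosome of their RefSeq gene.

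Both subunit genes start from the same stretch of DNA, in opposite directions, 272 bases apart. That stretch is printed because the pair shares it and neither subunit differed beyond its spread; it comes from RefSeq, build GRCm38.p6, chr5:30154981-30155252, plus strand, with Hadha leaving to the left and Hadhb to the right. It holds no AGGTCA on either strand and has no capitals.

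Hadha and Hadhb shared promoter: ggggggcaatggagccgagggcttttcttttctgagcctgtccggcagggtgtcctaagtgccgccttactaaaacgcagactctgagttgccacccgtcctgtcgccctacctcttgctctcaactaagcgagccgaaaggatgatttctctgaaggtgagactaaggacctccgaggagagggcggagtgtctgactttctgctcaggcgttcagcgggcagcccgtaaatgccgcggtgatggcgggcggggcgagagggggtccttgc

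Auxiliary enzymes, which move or remove double bonds so that unsaturated chains can enter the spiral, differed by at most 0.16 on the log2 scale. Decr1, the mitochondrial 2,4-dienoyl-CoA reductase, had means of 11.31 in NCD and 11.28 in HFD. Its peroxisomal relative Decr2 had a difference of -0.16 (limma adjusted p = 0.866). Dci (Eci1) differed by -0.04, Peci (Eci2) by -0.1275 and Ech1, a dienoyl-CoA isomerase, by 0.045. Without NCD 2 and NCD 3 the means of all 5 auxiliary genes were higher in HFD, with Decr2 at 0.025 and Peci at 0.04. After scaling to a common median and spread 3 of the 5 were higher, while Decr2 (-0.117) and Peci (-0.068) stayed lower.

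The electron transfer flavoprotein takes electrons from the dehydrogenases, and its subunit genes had differences of opposite sign. Etfa, the alpha subunit, on chromosome 9 from 55302315 to 55360050, read 11.83, 11.85, 11.91 and 11.85 on NCD 1 to 4 and 12.01, 11.96, 11.93 and 11.98 on HFD 1 to 4. All HFD arrays were above all NCD arrays, in the gene with the smallest spread of the 31 (pooled SD 0.0342). The difference was 0.11 ± 0.10 (SE), a 1.08-fold higher level with a 95% interval from -0.10 to 0.32 (limma adjusted p = 0.867). Here the test matters: limma widens a spread this small towards that of other genes, whereas the methods' t-test, which uses the spread of Etfa alone, gave an unadjusted p of 0.00387 and an adjusted p of 0.489. Etfb, the beta subunit, read 9.94, 10.19, 10.38 and 10.00 on NCD 1 to 4 and 9.91, 9.92, 9.78 and 10.14 on HFD 1 to 4. The Etfb groups overlapped, with a difference of -0.19 (limma adjusted p = 0.815) that shrank to -0.03 without NCD 2 and NCD 3. After scaling to a common median and spread it was -0.08. Etfdh, which hands the electrons on to ubiquinone, had a difference of 0.03.

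Of the 4 associated genes, 3 are known in mouse liver as strong PPAR alpha targets, and all 3 lay within the range of olfactory receptor genes here. Cyp4a10, a microsomal fatty acid omega-hydroxylase, read 5.70, 5.23, 5.89 and 5.78 on NCD 1 to 4 and 5.88, 5.52, 5.45 and 5.70 on HFD 1 to 4. Its relative Cyp4a14 read 5.72, 5.02, 5.39 and 5.54 on NCD 1 to 4 and 5.29, 5.50, 5.37 and 4.87 on HFD 1 to 4. Vnn1, a pantetheinase, read 5.32, 4.80, 5.23 and 4.96 on NCD 1 to 4 and 5.09, 5.43, 5.27 and 5.11 on HFD 1 to 4. The groups overlapped for each of these genes, and a change from a level this dim could go unseen on the array.

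Acsf3, a mitochondrial synthetase that activates malonate, had the largest lower value of the 31 genes. It read 7.05, 7.25, 7.71 and 6.93 on NCD 1 to 4 and 6.72, 7.02, 6.86 and 7.21 on HFD 1 to 4. The groups overlapped, and NCD 3 was again the highest array. The difference was -0.28 ± 0.16 (SE, limma adjusted p = 0.771), with a 95% interval from -0.63 to 0.06. Without NCD 2 and NCD 3 the difference was -0.04, but after scaling to a common median and spread it was -0.25.

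**Figure D2:**
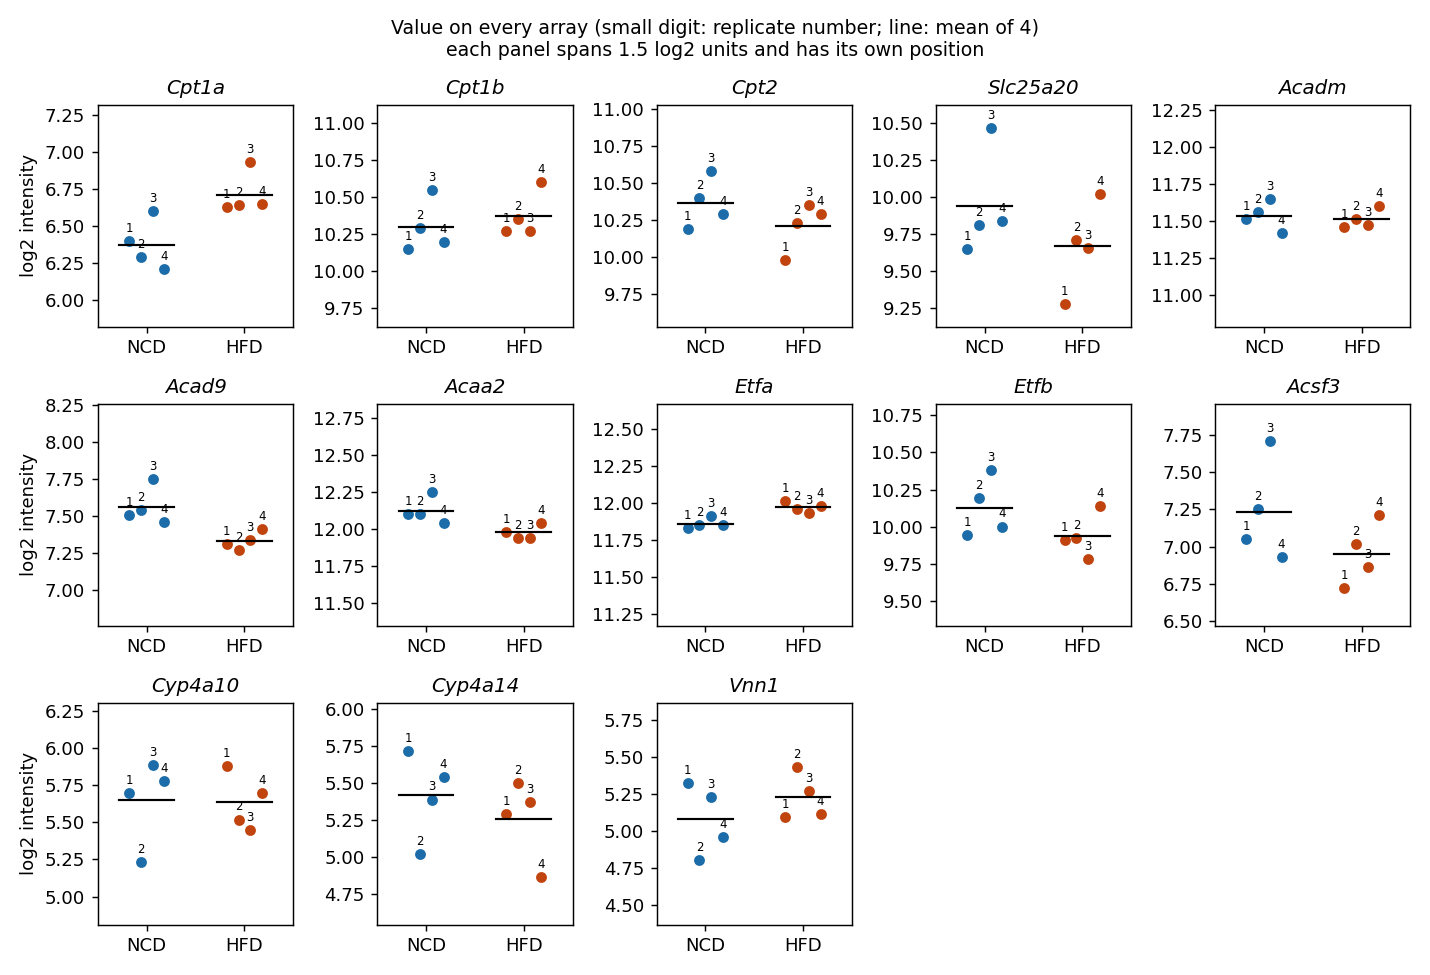
Log2 intensity on every array for 13 of the 31 genes, those with separated groups, the 6 smallest p-values or a place in the list of genes always shown; points are arrays with their replicate number and lines are means of 4. Cpt1a and Etfa have every HFD array above every NCD array, Acad9 has the opposite order, and NCD 3 stands high in Slc25a20 and Acsf3.

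Single arrays stood apart across most of the 31 genes. Relative to each gene's own mean over the 8 arrays, NCD 3 was above it for 29 of the 31 genes, with a median deviation of 0.21 on the log2 scale, and HFD 4 for 25 of the 31, with a median of 0.11. HFD 1 was above it for 6 of the 31, with a median of -0.09. NCD 3 held the highest NCD value for 23 of the 31 genes. The mean over the 31 genes was 9.13, 9.17, 9.40 and 9.11 on NCD 1 to 4 and 9.06, 9.14, 9.11 and 9.25 on HFD 1 to 4, so the groups overlapped. All 1260 genes with a mean level over 9, a bound chosen after the values were seen, had median deviations of 0.14 on NCD 3, 0.10 on NCD 2 and 0.07 on HFD 4, the arrays of widest spread. The part of this spread in the lower HFD means was not tested. Without NCD 2 and NCD 3 the median difference of the 31 genes was 0.03, with means lower in HFD for 12 and higher for 19. That fit leaves out NCD arrays only, among them the highest NCD array of 23 genes, and keeps HFD 4. It therefore moves HFD minus NCD upward wherever the arrays left out were high. Without HFD 4 alone the median was -0.09, with 25 lower. After the arrays were scaled to 1 common median and spread (the median absolute deviation) the median was 0.02, with 14 lower and 17 higher. Other scalings kept it below 0: quantile normalization run again gave -0.02 with 17 lower, and cyclic loess -0.03 with 18 lower. Of the 23 genes with lower HFD means over all arrays, 12 were still lower without NCD 2 and NCD 3.

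**Figure D3:**
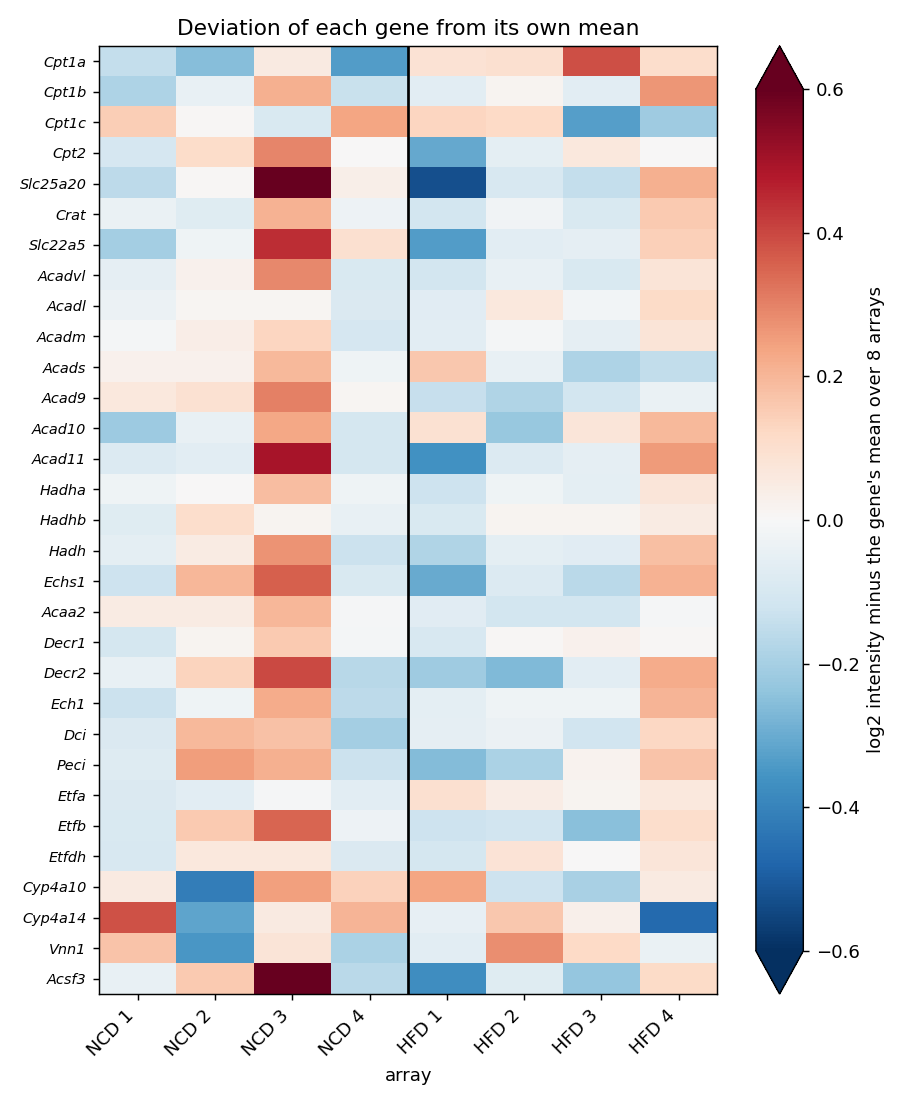
Deviation of each of the 31 genes from its own mean over the 8 arrays (colour, log2 intensity, red above and blue below), with NCD arrays left of the black line and HFD arrays right of it. The NCD 3 column is above the mean for 29 of the 31 genes and the HFD 4 column for 25.

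Genes around the oxidation pathway were read from lists chosen with earlier results of these data known. Of 11 genes of fatty acid entry and activation, 1 was lower, 0 were higher and 10 did not pass. The one past the threshold was Acsl5, an acyl-CoA synthetase, lower by 1.17 (limma adjusted p = 0.00369). Acsl1, the synthetase best known for feeding oxidation in brown fat, differed by 0.0375 and the fatty acid transporter Cd36 by 0.1275. At an unadjusted limma p under 0.05, 4 of the 11 were lower and 1 was higher, against 7.24% of all genes in either direction. Besides Acsl5 these were Acsl3 (-0.47), Acsl4 (-0.40), Slc27a1 (-0.305) and Fabp3 (0.28). The Acsl5 call was lost with the methods' t-test (adjusted p = 0.333) and without NCD 2 and NCD 3 (limma adjusted p = 0.0970). The list's median difference was 0.04.

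Of 14 genes of the malonyl-CoA switch and of regulators, 1 was lower, 0 were higher and 13 did not pass, with a median of -0.14. Acaca, the carboxylase that makes malonyl-CoA for synthesis, fell by 1.08 (limma adjusted p = 0.00148). Its call was lost with the methods' t-test (adjusted p = 0.220), without NCD 2 and NCD 3 (limma adjusted p = 0.0531) and after scaling to a common spread (limma adjusted p = 0.0709). Acacb, the carboxylase at the mitochondrial surface whose malonyl-CoA restrains carnitine palmitoyltransferase 1, averaged 9.59 (SD 0.22, n = 4) on NCD arrays and 9.10 (SD 0.22, n = 4) on HFD arrays, and its difference of -0.49 did not pass (limma adjusted p = 0.331). Mlycd, which breaks malonyl-CoA down, had a difference of -0.42 (limma adjusted p = 0.499). Ppara, the receptor that governs many oxidation genes, differed by -0.15 with a 95% interval from -0.51 to 0.21, and its coactivator Ppargc1a by -0.19 with an interval from -0.42 to 0.04.

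Peroxisomal beta-oxidation, which shortens very long and branched chains, had 0 of 14 genes past the threshold in either direction and a median of -0.03. Crot, the carnitine octanoyltransferase of peroxisomes, differed by -0.255 (limma adjusted p = 0.670) and Ehhadh, the bifunctional enzyme, by -0.46 (limma adjusted p = 0.752). Of the ketone body enzymes Bdh1, Acat1 and Oxct1, 0 of 3 passed, and their differences were -0.055, 0.055 and 0.085. The respiratory chain and mitochondrial mass list had 0 of 15 past the threshold, a median of -0.16 and 14 lower means, and its array means were highest on NCD 3 (10.71), NCD 2 (10.69) and HFD 4 (10.64).

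Fatty acid synthesis genes, which belong to the opposite pathway, are given for comparison only: 8 of 9 were lower in HFD, 0 were higher and 1 did not pass, with a median of -1.30. The lowest of them, Acly, which makes cytosolic acetyl-CoA, fell by 1.72 (limma adjusted p = 2.02e-05). Of the 9, 0 passed with the methods' t-test, where the adjusted p of Acly was 0.106, and 2 passed without NCD 2 and NCD 3, Acly and Elovl6, with means lower in 9 of 9 in both. These 9 genes were listed knowing that several had fallen, and the difference between this list and the oxidation genes was not tested.

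**Figure D4:**
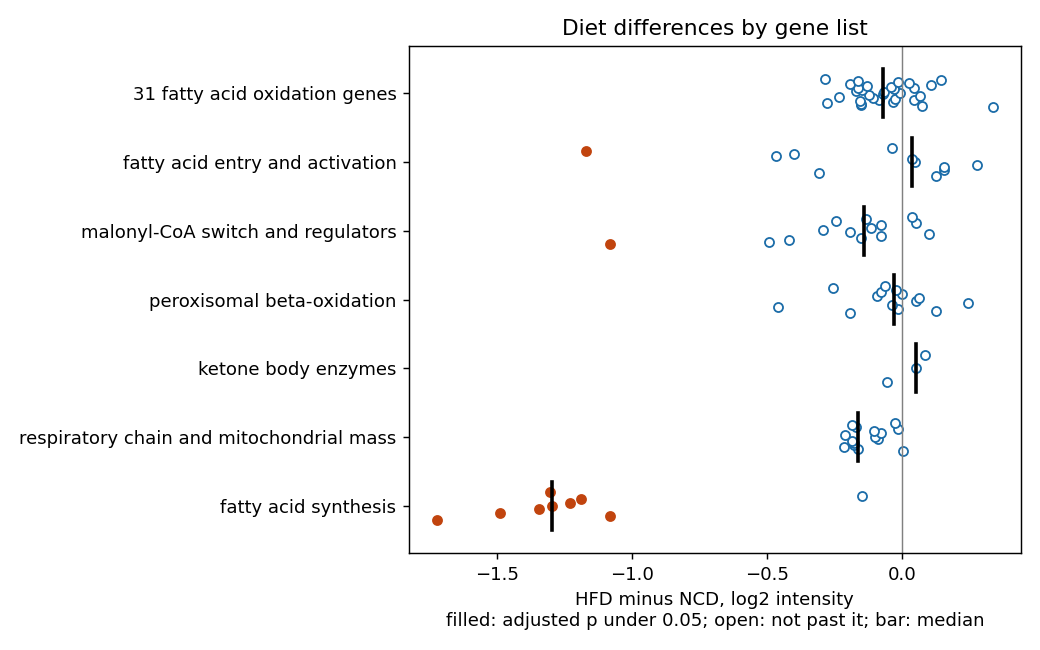
Differences between the diets (HFD minus NCD, log2 intensity) of the 31 genes and of 6 companion lists, 1 point per gene, filled where limma's adjusted p was under 0.05, with the median as a bar. The 31 oxidation genes hold 0 filled points and lie between -0.28 and 0.34, while 8 of the 9 synthesis genes are filled with a median of -1.30.

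Markers of other cell types were read beside these values. None of the 15 muscle, 7 macrophage, 5 endothelial, 5 liver, 3 blood, 5 general adipocyte or 5 white adipocyte markers measured passed the threshold, and 1 of 10 brown adipocyte markers did, Elovl3, which was lower (limma adjusted p = 0.00673, and 0.149 without NCD 2 and NCD 3; adjusted p = 0.414 with the methods' t-test). The brown adipocyte list had a median difference of -0.11, with 9 of 10 means lower in HFD and array means of 8.90 to 9.235 in NCD and 8.70 to 8.90 in HFD. Macrophage markers had a median difference of 0.23 (array means 6.58 to 7.07 in NCD and 6.69 to 7.22 in HFD) and endothelial markers one of 0.26 (8.57 to 8.96 and 8.77 to 9.06). All 5 liver markers had higher means in HFD, with a median difference of 0.235, and 4 of the 5 had mean levels within the range of olfactory receptor genes. Alb, the albumin gene, had a difference of 0.55 (limma adjusted p = 0.788). The general adipocyte list had a median of -0.01. The white adipocyte list had a median of -0.145, with 3 of 5 means lower in HFD. In that list Lep, the leptin gene, was higher in HFD by 0.90 (limma adjusted p = 0.308). Lep read 7.79 to 9.34 on NCD arrays and 9.52 to 9.67 on HFD arrays. HFD arrays lay wholly above NCD arrays for 1.33% of all genes. The part of these cell types in the oxidation genes' values was not tested.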

How the data were processed

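Total RNA was hybridised to 8 arrays. The deposited values are log2 intensities, with quantile normalization in Affymetrix Power Tools named in the series' design text and the submitters' processing notes. As deposited, the arrays do not share 1 distribution. Their medians ran from 5.91 to 5.99 and their standard deviations over clusters from 1.69 to 1.82. The authors' deposited p-value and signed fold score for diet are given for Cpt1a, and the p-value also for Acaa2, as description; the equal-variance t-test called the methods' t-test here does not return those p-values. The sources used here name no summarization method and no genome build. No intensity or background files were used. Separately, the number of arrays limits the precision.

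HFD minus NCD was fitted with limma 3.58.1 under R 4.3.3 (linear model with empirical Bayes variances, prior of 8.87 degrees of freedom), two-sided, Benjamini-Hochberg adjusted over 21759 genes at 0.05. Differences had a median standard error of 0.127. The steps were tested on simulated data. All 31 genes matched RefSeq (GRCm38.p6) by accession.

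Members and lists were chosen with earlier results of these data known. One listed gene is not reported here, and 2 listed marker symbols matched no row, Wdnm1-like and Adgre1, the latter read under its older symbol Emr1. Named genes were those with separated groups, the 6 smallest p-values and 7 always shown. Alternatives covered variance models, scalings, dim genes (means under the 40th percentile, 5.565), clusters and left-out arrays. Same-numbered arrays did not deviate together over all genes, with correlations of 0.0025, -0.0299, -0.0276 and -0.165. With so few arrays this cannot exclude a processing step shared by number.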

Additional observations from a re-analysis of the deposited data

Results flagged for a closer look

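In 6 of 62 groups of 4 arrays, 1 array lay far from the other 3 by Dixon's 95% criterion on the gap to the nearest array. For a single group chance flags about 1 in 20. The 62 groups reuse the same 8 arrays, and NCD 3 was above the gene's mean for 29 of the 31 genes. They are therefore not independent, and the count is no test against that rate. Cpt1a in HFD had its highest value, 6.93, on HFD 3, with the next at 6.65. Without HFD 3 its difference was 0.265. On NCD 3, Crat read 9.21 (next 8.97), Acad11 read 9.12 (next 8.56) and Hadha read 12.08 (next 11.90). Ech1 read 10.88 on HFD 4 (next 10.65). Decr1 read 11.20 on HFD 1, below the next value of 11.30. NCD 3 and HFD 4 are among the arrays of widest spread, and the part of that spread in these values was not tested.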

How the results depend on the processing

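The count of oxidation genes past the threshold was 0 in each direction under all 21 alternatives (29 of the 31 entered the fit on brighter genes). The count over all genes, 31, became 0 with the methods' t-test, 70 with a variance trend and robust prior, and 3 without NCD 2 and NCD 3; leaving out 1 array gave 21 to 38. The median over the oxidation genes was negative in 18 alternatives and positive in 2, at 0.0238 after scaling to a common spread and at 0.03 without NCD 2 and NCD 3; leaving out 1 array gave -0.115 to 0, the latter without NCD 3. Of the 13 genes with values on every array, 9 kept their sign in all alternatives run, Cpt1a between 0.265 and 0.4125 and Etfa between 0.097 and 0.26; 0 passed in any, with adjusted p from 0.333 for Cpt1a and 0.489 for Etfa. Some differences changed sign. Acadm was 0.115 with equal median and spread, 0.039 with quantiles again, 0.028 with cyclic loess and 0.045 without NCD 2 and NCD 3. Acaa2 was 0.0062 with equal median and spread. Cyp4a10 was 0.022 with array weights and 0.067 without NCD 1 and HFD 3. With 1 array left out, Acadm ranged from -0.063 to 0.013, Cyp4a10 from -0.15 to 0.0675 and Cpt1b from -0.00083 to 0.159. The cause was not tested. With the replicate block, 36 genes passed, 0 of them oxidation genes, and Cpt1a stayed at 0.34 (limma adjusted p = 0.514). Dim levels limit Cpt1a, Cpt1c, Acad10, Cyp4a10, Cyp4a14 and Vnn1.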
